A study of Mus musculus with 10 samples.

Results

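Fc gamma receptors and transcripts that define macrophages were examined in mouse germinal vesicle oocytes, the fully grown oocytes that wait in prophase of meiosis I. The set held 10 genes: the receptor genes Fcgr1, Fcgr2b, Fcgr3 and Fcgr4, their shared signalling chain Fcer1g, and the macrophage or leukocyte genes Csf1r, Lyz2, C1qb, Ptprc and Tyrobp. All probe sets whose single platform gene symbol was one of these were taken, 20 of the 34958 probe sets with 1 symbol and of the 45101 on the array. The genes were chosen by the Fcgr1 signal, already known to be far higher in these CTCF-depleted oocytes, so differences between the groups within the set are given as a description, without p-values. The series holds 5 arrays of CTCF-depleted oocytes and 5 arrays of wild type oocytes, with total RNA from each labelled with biotin and hybridised to an array of its own. CTCF, a DNA-binding factor with zinc fingers, marks insulators and anchors chromatin loops. How CTCF was depleted, the strain, the age, the number of oocytes pooled and the separation of samples by animal are not in the labels. SE and p-values therefore cover array-to-array spread that could be technical.

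Fc gamma receptors bind the constant part of immunoglobulin G. Fcgr1 encodes the high-affinity receptor of monocytes and macrophages, which binds single antibody molecules. Fcgr3 and Fcgr4 encode activating receptors for antibody complexes, and Fcgr2b encodes the inhibitory receptor. The activating receptors have no signalling motif of their own and depend on the Fcer1g chain, whose tyrosine motif, the ITAM, recruits the kinase Syk. Tyrobp encodes a related ITAM adaptor of myeloid cells. In macrophages Fcgr1 is a classical target of interferon gamma and of the myeloid factor PU.1.

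The promoters of the 4 Fc gamma receptor genes are shown because Fcgr1 led to the choice of the set and because these motifs are the known inputs of Fcgr1 in macrophages. Each runs 5′ to 3′ from 250 bases before to 50 bases after the RefSeq start, 300 bases in all. Capitals mark matches to the interferon gamma activated site, TTCNNNGAA, and to the PU.1 core, GAGGAA or its reverse complement TTCCTC.
Fcgr1, GRCm38.p6 chr3:96293920-96294219, minus strand: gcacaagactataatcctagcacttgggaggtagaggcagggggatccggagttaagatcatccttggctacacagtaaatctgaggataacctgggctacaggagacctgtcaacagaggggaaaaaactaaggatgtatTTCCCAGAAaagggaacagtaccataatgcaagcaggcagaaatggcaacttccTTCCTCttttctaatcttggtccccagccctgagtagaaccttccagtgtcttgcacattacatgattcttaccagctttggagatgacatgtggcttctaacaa
Fcgr2b, GRCm38.p6 chr1:170976022-170976321, minus strand: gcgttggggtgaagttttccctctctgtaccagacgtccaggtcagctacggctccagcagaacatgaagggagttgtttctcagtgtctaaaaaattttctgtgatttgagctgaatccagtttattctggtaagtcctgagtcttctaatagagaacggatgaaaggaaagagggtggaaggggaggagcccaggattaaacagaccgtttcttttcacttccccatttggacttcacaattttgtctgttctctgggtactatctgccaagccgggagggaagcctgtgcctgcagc
Fcgr3, GRCm38.p6 chr1:171059354-171059653, minus strand: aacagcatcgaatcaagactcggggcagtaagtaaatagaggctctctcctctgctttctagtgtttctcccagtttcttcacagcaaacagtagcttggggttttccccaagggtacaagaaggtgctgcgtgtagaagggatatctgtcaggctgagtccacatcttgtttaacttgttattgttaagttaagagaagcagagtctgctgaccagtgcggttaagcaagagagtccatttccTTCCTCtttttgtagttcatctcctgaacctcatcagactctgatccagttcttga
Fcgr4, GRCm38.p6 chr1:171018676-171018975, plus strand: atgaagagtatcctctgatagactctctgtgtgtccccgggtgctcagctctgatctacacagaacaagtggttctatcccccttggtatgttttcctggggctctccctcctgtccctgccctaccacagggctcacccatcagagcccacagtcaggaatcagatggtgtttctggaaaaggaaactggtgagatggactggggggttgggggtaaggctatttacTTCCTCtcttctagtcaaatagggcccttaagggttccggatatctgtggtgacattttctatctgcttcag

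The Fcgr1 promoter held 1 match to the interferon gamma activated site, TTCCCAGAA, beginning 109 bases before the start, and 1 match to the PU.1 core, TTCCTC, beginning 55 bases before it. The 2 matches did not overlap. Of the 8 members with a promoter in the RefSeq table, Fcgr1 was the only one with the interferon gamma activated site, which 8.29% of all 32817 promoters of this length held on either strand. The PU.1 core was present in 5 of the 8, those of Fcgr1, Fcgr3, Fcgr4, C1qb and Ptprc, against 28.3% of all promoters. The letters CCCTC, which gave CTCF its name, occurred on either strand in 7 of the 8 and in 66.0% of all promoters. Such matches are letters in a window and were not tested as binding sites. Tyrobp and Csf1r are named only.

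The oocyte arrays measured oocytes by their own markers. All 24 oocyte marker genes on the array lay above the control level on all 10 arrays, the control level being the highest signal of 27 Bacillus control probe sets on each array, between 4.75 and 10.9. The 2 Ctcf probe sets averaged 20.7 ± 22.7 and 36.3 ± 33.7 in depleted oocytes, against 766 ± 74.1 and 1001 ± 76.0 in wild type oocytes (SD, n = 5 each). Wild type replicate 2 stood apart for markers of cumulus and granulosa cells, the somatic cells around the oocyte. The summed signal of 26 such genes was 3048 on it, against 1205 to 1333 on the other wild type arrays and 1192 to 1575 on the depleted arrays. The gap junction gene Gja1 read 1017 on that array and the inhibin gene Inha 536, against at most 209.8 and 188 on the other wild type arrays. The Fcgr1, Lyz2, Csf1r and granulosa results are also given without this array. An array has no read depth, and the number of arrays limits the precision.

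Fcgr1, whose difference led to the choice of these genes, was far higher in depleted oocytes on one probe set and less so on the other. On its first probe set it read 200.2, 294, 267, 277 and 187 on the 5 depleted arrays, against 20.1, 3.74, 4.37, 1.82 and 5.72 on the wild type arrays. The lowest depleted array was far above the highest wild type array, and 4 of the 5 wild type arrays were below the control level. The means were 245 ± 47.9 in depleted and 7.16 ± 7.40 in wild type oocytes (SD, n = 5 each). The log2 fold change of log2(signal + 2.47) was 4.92 ± 0.31 (SE), or 30.2-fold. Because most wild type values are background, that size depends on the offset: it was 38.2-fold with an offset of 1 and 11.5-fold with an offset of 16.

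The second Fcgr1 probe set gave a much smaller difference. It read 31.2, 20.3, 32.1, 33.7 and 27.0 on the depleted arrays, against 19.2, 19.8, 13.7, 17.7 and 16.4 on the wild type arrays. The groups did not overlap, although depleted replicate 2 lay only just above the highest wild type array. All 10 arrays were above the control level for this probe set. With that level set instead at the median plus 2 SD of the controls, 5 depleted and 3 wild type arrays were above it. The wild type signal here was therefore close to background. The log2 fold change was 0.65 ± 0.17 (SE, 95% interval 0.29 to 1.01), and without depleted replicate 4 it was 0.59 and no longer passed the threshold. Of the 12 member probe sets tested, 2 passed limma with Benjamini-Hochberg adjustment, both of Fcgr1 and both higher, beside 12.6% of all 27022 probe sets, 5.48% higher and 7.12% lower. The Fcgr1 difference chose the set, so nothing is read from this count or from a Fcgr1 probe set passing the threshold. The groups did not overlap in 2 of the 20 member probe sets, both of Fcgr1 and higher, beside 7.01% of the 45037 probe sets without controls, or 2.95% with the depleted group higher.

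**Figure D1:**
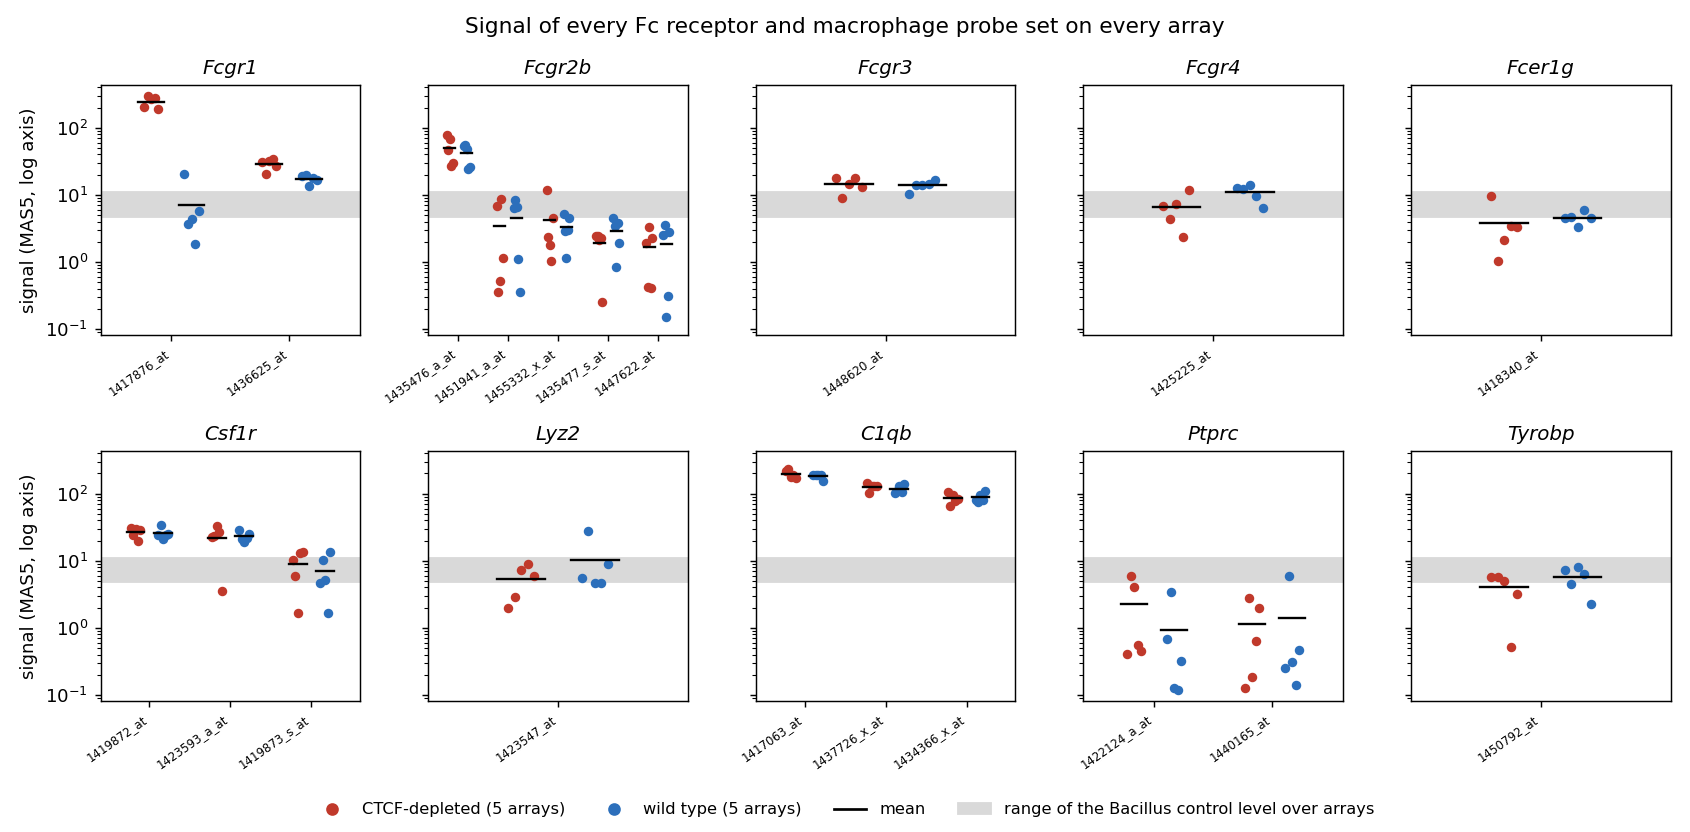
Signal (MAS5, log axis) of all 20 probe sets of the 10 genes on every array, with CTCF-depleted arrays (red) left of wild type arrays (blue), black lines at the means of 5 arrays and a grey band for the range of the Bacillus control level over arrays, 4.75 to 10.9. The 2 Fcgr1 probe sets have groups that do not overlap, while in the other 18 they do.

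The first Fcgr1 probe set is given beside the residual Ctcf signal of the depleted arrays. On the brighter Ctcf probe set, above the control level on all 5, Ctcf read 16.7, 17.2, 22.3, 29.3 and 95.8 on depleted replicates 4, 2, 3, 1 and 5, where Fcgr1 read 277, 294, 267, 200.2 and 187. By these 2 probe sets, the 2 arrays with most Ctcf were the 2 with least Fcgr1. The array with least Ctcf was not the one with most Fcgr1. The dimmer Ctcf probe set read 9.94, 7.07, 11.4, 14.2 and 61.1 on the same arrays, and its 7.07 on replicate 2 lay below the control level of 8.18. By this probe set replicate 2 had the least Ctcf and also the most signal on the first Fcgr1 probe set. The second Fcgr1 probe set was lowest on replicate 2, at 20.3, so the order of the arrays depended on the probe set. With 5 arrays no correlation is given, and these values were set side by side after they were seen.

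**Figure D2:**
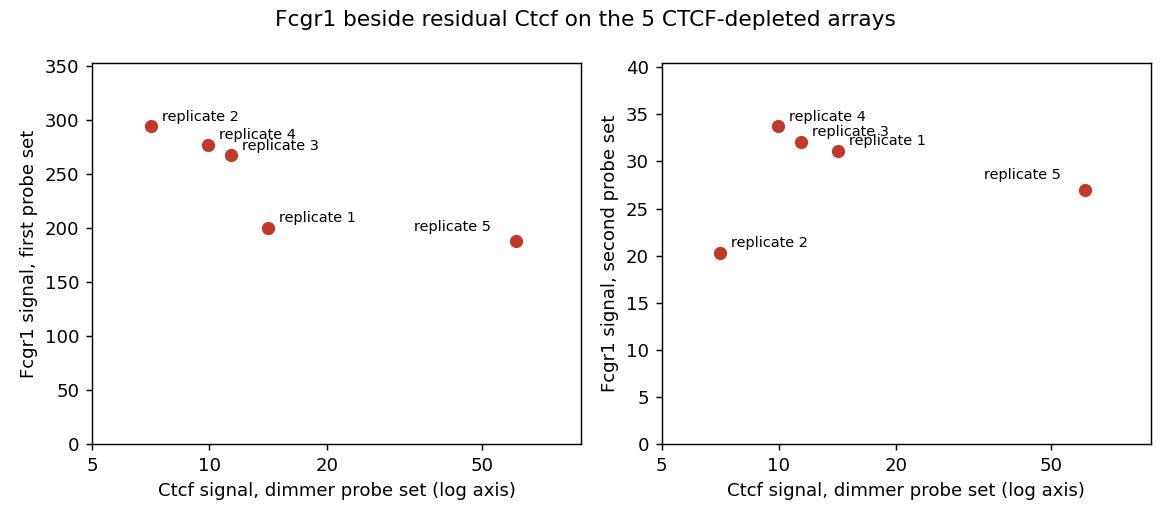
Signal of the 2 Fcgr1 probe sets (vertical axes) against the Ctcf signal on its dimmer probe set (log axis) on the 5 CTCF-depleted arrays, 1 point per array. Fcgr1 lies between 187 and 294 on the left, and on the right replicate 2 is the lowest at 20.3, with its Ctcf signal of 7.07 below the control level of that array.

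The other Fc gamma receptors did not pass the test. Fcgr2b, the inhibitory receptor, had 5 probe sets, of which 1 passed the filter on dim signals. That probe set read 79.2, 46.9, 69.0, 27.3 and 29.7 on the depleted arrays, against 52.6, 56.1, 47.6, 24.3 and 26.1 on the wild type arrays. The groups overlapped almost entirely, and the log2 fold change was 0.23 ± 0.29 (SE, 95% interval -0.37 to 0.84). The other 4 Fcgr2b probe sets were below the filter, and none was above the control level on more than 1 array of a group.

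Fcgr3, an activating receptor, read 18.01, 9.03, 14.4, 17.5 and 13.1 on the depleted arrays, against 10.2, 14.01, 13.97, 14.5 and 16.7 on the wild type arrays. Its groups overlapped, with a log2 fold change of 0.03 ± 0.21 (SE, 95% interval -0.41 to 0.46). Fcgr4 read 6.72, 4.43, 7.23, 2.33 and 11.8 on the depleted arrays, against 12.5, 12.4, 14.2, 9.60 and 6.29 on the wild type arrays. It was above the control level on 1 depleted and 4 wild type arrays, and its log2 fold change was -0.64 ± 0.30 (SE, 95% interval -1.27 to -0.02), the opposite sign to Fcgr1, without passing the threshold after adjustment. The 3 genes lie together on mouse chromosome 1, away from Fcgr1 on chromosome 3.

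The partner chain of the receptors was at background in both groups. Fcer1g, which the Fcgr1 protein needs to reach the surface of macrophages, read 9.48, 1.02, 2.09, 3.38 and 3.35 on the depleted arrays, against 4.57, 4.69, 3.34, 5.86 and 4.47 on the wild type arrays. Only depleted replicate 1 was above its control level, by a small margin (9.48 against 9.46). Tyrobp, the other ITAM adaptor, was above the control level on 0 depleted arrays and 1 wild type array, and read at most 5.83 and 7.99 in these groups. Neither passed the filter, and no fold change is given for genes at background in both groups. A signal at background limits the level that these arrays can show and does not show that the transcript is absent.

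Transcripts that define leukocytes and macrophages were at background or had groups that overlapped. Ptprc, which encodes CD45 of all nucleated blood cells, was above the control level on 0 of 10 arrays with either of its 2 probe sets, and its highest signals were 5.91 in depleted and 5.85 in wild type oocytes. Lyz2, the lysozyme of macrophages and neutrophils, read 1.95, 2.86, 7.27, 8.89 and 5.91 on the depleted arrays, against 5.47, 27.9, 4.60, 4.64 and 8.84 on the wild type arrays. Its highest value was on wild type replicate 2, the array with high cumulus markers. Its log2 fold change was -0.53 ± 0.40 (SE, 95% interval -1.37 to 0.31), and -0.15 without that array. In total RNA of this kind, fewer cells of a type and less RNA per cell cannot be told apart.

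Csf1r, the receptor for the growth factor that keeps macrophages alive, had 3 probe sets, and none was called. The first read 30.6, 24.3, 29.4, 19.4 and 28.7 on the depleted arrays, against 24.6, 34.3, 21.4, 24.2 and 24.99 on the wild type arrays. All of these were above the control level, and the log2 fold change was 0.03 ± 0.16 (SE, 95% interval -0.32 to 0.37), and 0.12 without wild type replicate 2. The second gave -0.28 ± 0.35 (SE), but 0.17 without depleted replicate 5, which read 3.50 while the other depleted arrays read 22.4 to 32.4. The dimmest gave 0.24 ± 0.41 (SE) and was above the control level on 3 depleted and 2 wild type arrays.

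C1qb was measured well above background in both groups, but its partner chains were not. C1qb encodes the B chain of C1q, the first component of complement, which macrophages make from A, B and C chains in equal number. On its brightest probe set it read 216, 229, 175, 187 and 169 in depleted oocytes, against 192, 191, 193, 188 and 152 in wild type oocytes. The groups overlapped, and the log2 fold change was 0.09 ± 0.10 (SE, 95% interval -0.12 to 0.30). The 2 other probe sets, whose probes may also match other transcripts, gave 0.12 ± 0.11 and -0.05 ± 0.13 (SE). C1qa, the A chain, was above the control level on 0 depleted arrays and 1 wild type array, and so was C1qc, the C chain. For both that array was wild type replicate 2, at 8.65 for C1qa and 7.69 for C1qc, against a control level of 6.15. On every other array neither partner chain was above the control level.

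**Figure D3:**
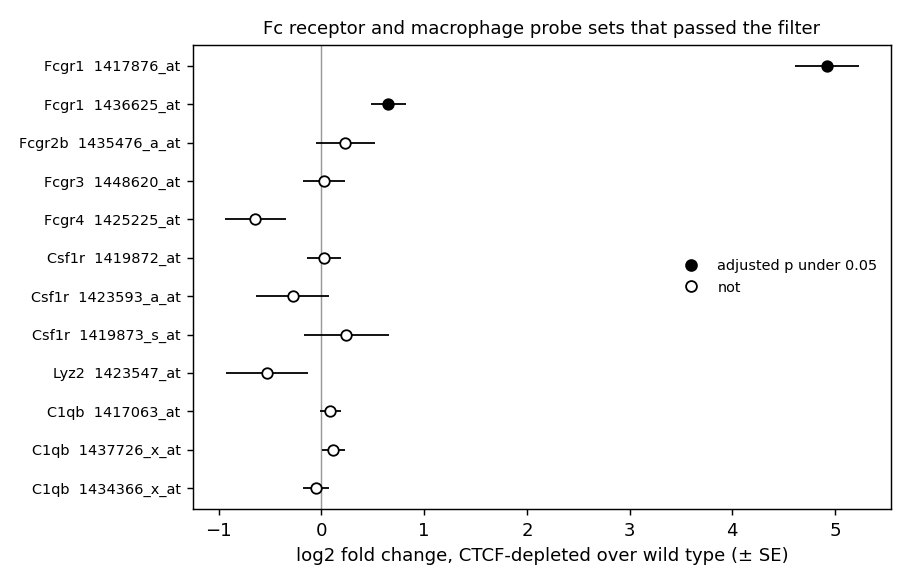
Log2 fold change, CTCF-depleted over wild type, with its SE, for the 12 member probe sets that passed the filter on dim signals, with filled points for an adjusted p under 0.05. The 2 Fcgr1 probe sets stand at 4.92 and 0.65, and the other 10 lie between -0.64 and 0.24. Fcgr1 led to the choice of the genes, so its filled points are a description.

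Among the members, 5 genes had a probe set above the control level on all 5 depleted arrays, and 4 did on all 5 wild type arrays. Fcgr1, Fcgr2b, Csf1r and C1qb did so in both groups, and Fcgr3 in the depleted group only. Fcgr3 read 10.18 on wild type replicate 1, against a control level of 10.19 there. With the level at the median plus 2 SD of the controls, the counts were 4 and 3. On single arrays 49.4% to 62.9% of all probe sets without controls were above the control level. Apart from Fcgr1, 10 probe sets passed the filter, 6 with positive and 4 with negative values. Of these, 0 were called in limma with Benjamini-Hochberg adjustment under the main setting and under 20 alternatives. In the main setting 1 had an unadjusted p under 0.05. Beside 12.6% of all 27022 probe sets called, 0 of 10 is near that share, and nothing is read from it. Fcgr3, Fcgr4, Lyz2 and the dimmest Csf1r probe set were tested under only 19 of the alternatives. The 8 probe sets that did not pass the filter include all those of Fcer1g, Ptprc and Tyrobp. The median log2 fold change of the 12 tested was 0.06, against -0.02 over all 27022 probe sets.

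A wider list of macrophage and monocyte markers had calls in both directions, and its summed signal overlapped between the groups. Of 58 such genes on the array 33 were tested, and 3 rose and 4 fell, while over all 13811 genes tested 7.26% rose and 9.12% fell. The median log2 fold change was -0.06, against -0.02 over all genes. The summed signal of the 58 genes ran from 2434 to 2660 on depleted arrays and from 2447 to 2606 on wild type arrays. A sum of that size could not show a change in dim genes, so nothing is read from its overlap. Of the 58 genes, 17 stayed at or under the control level on every depleted array and 16 on every wild type array. The adhesion G protein-coupled receptor Adgre1, known as F4/80, had a log2 fold change of -0.14 and the lysosomal Cd68 of -0.05, and neither passed. The integrin Itgam and the endotoxin receptor Cd14 were above the control level on 0 depleted arrays, and on 1 and 0 wild type arrays.

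The called macrophage markers are given with their values. Msr1, a scavenger receptor, read 5.76 ± 2.34 in depleted and 14.9 ± 2.59 in wild type oocytes (SD, n = 5 each), with 2 depleted arrays above the control level. It fell by 1.12 ± 0.25 on the log2 scale (SE), with a Benjamini-Hochberg adjusted p of 0.00655 in limma. As most depleted values were at background, that size depends on the offset and was -1.30 with an offset of 1 and -0.51 with an offset of 16. Mrc1, the mannose receptor, read 105 ± 13.2 in depleted and 185 ± 11.2 in wild type oocytes, a change of -0.81 ± 0.10 on the log2 scale (SE) with groups that did not overlap. The fatty acid receptor Cd36 fell by 0.35 and the lysosomal protein gene Laptm5 by 0.44 on the log2 scale, but Laptm5 lost its call under 12 of 21 alternatives. Lgals3, a galectin, rose by 0.53 ± 0.12 (SE), the interferon regulatory factor Irf8 by 0.44 and the receptor kinase Mertk, which clears dying cells, by 0.36. Mertk lost its call under 8 of 21 alternatives and gave 0.26 without depleted replicate 2.

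Calls among genes that act downstream of Fc receptors went both ways. Of 50 genes of Fc receptor and ITAM signalling on the array, 41 were tested, and 3 rose and 3 fell, beside 7.26% and 9.12% of all genes, with a median log2 fold change of 0.00. Fgr, a Src-family kinase of myeloid cells, read 46.7 ± 8.83 in depleted and 78.0 ± 6.20 in wild type oocytes (SD, n = 5 each). It fell by 0.72 ± 0.13 on the log2 scale (SE), with a Benjamini-Hochberg adjusted p of 0.000884 in limma, and its other probe set gave -0.71. The adaptor gene Lcp2 fell by 0.46 and the exchange factor gene Vav2 by 0.46 on the log2 scale, but the other Vav2 probe set gave 0.29. Vav3, a related exchange factor gene, rose by 0.78 ± 0.18 (SE), with -0.10 on 1 of its other probe sets. The docking protein gene Gab2 rose by 0.25 and the kinase gene Btk by 0.27, a call that 9 of 21 alternatives removed. Syk, which binds the ITAM, gave 0.16 ± 0.36 (SE) on that scale and did not pass. Fcgrt, the neonatal Fc receptor, gave -0.02, and Fcer2a, a receptor for immunoglobulin E, 0.00. Fcer1a, the other chain of an immunoglobulin E receptor, did not pass the filter.

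Interferon gamma is the classical inducer of Fcgr1. Of 45 genes of its response on the array 28 were tested, and 3 rose and 2 fell, beside 7.26% and 9.12% of all genes. At an unadjusted p under 0.05, 6 were higher and 6 lower, and the median log2 fold change of the 28 was 0.07. Ifng itself was above the control level on 0 of 10 arrays. The receptor chains Ifngr1 and Ifngr2 had log2 fold changes of -0.33 and 0.09 and did not pass. Socs1, which restrains the JAK kinases, read 26.5 ± 6.98 in depleted and 54.4 ± 9.17 in wild type oocytes (SD, n = 5 each), a fall by 0.99 ± 0.17 on the log2 scale (SE) with a Benjamini-Hochberg adjusted p of 0.000968 in limma. Socs3, of the same family, rose by 0.69 ± 0.15 (SE), and the GTPase gene Irgm2 by 1.00 ± 0.28 (SE) from a low level, a call that 6 of 20 alternatives removed. Irf1 rose by 0.16, and Stat3 fell by 0.23 with 0.08 on 1 of its other probe sets. Irf1 lost its call under 5 of 21 alternatives and Stat3 under 7. The number that fell was 4 without depleted replicate 3 and 1 without wild type replicate 3 or wild type replicate 5.

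Markers of other cell types were examined beside these. Of 20 tested markers of other blood cells, 0 rose and 2 fell in limma, beside 7.26% and 9.12% of all genes. In that list 0 were higher and 4 lower at an unadjusted p under 0.05. The 2 that fell were the T cell genes Cd4 and Cd5, by 0.64 and 0.37 on the log2 scale. The T cell receptor chains Cd3e, Cd3d and Cd3g did not pass the filter. Of 19 tested theca, stroma and endothelial markers, 0 rose and 0 fell in limma, and 1 and 2 did at an unadjusted p under 0.05. Of 22 tested granulosa and cumulus markers, 3 rose and 0 fell, beside 7.26% and 9.12% of all genes. At an unadjusted p under 0.05, 3 were higher and 2 lower. The median log2 fold change of the 22 was -0.13, against -0.02 over all genes. Without wild type replicate 2, 3 rose and 1 fell, and 8 of 21 alternatives in all gave 1 that fell. Fshr, the receptor for follicle-stimulating hormone, read 47.8 ± 5.75 in depleted and 23.2 ± 6.69 in wild type oocytes (SD, n = 5 each). Ptgs2, an enzyme of prostaglandin synthesis, was above the control level on all depleted and 0 wild type arrays with depleted oocytes at least 1.85-fold higher, and Nr5a2, a nuclear receptor, rose by 0.31 on the log2 scale. Foxl2 and Amh, which define granulosa cells, had log2 fold changes of -0.10 and 0.17 and did not pass. The part of these cells in the Fcgr1 result was not tested. On wild type replicate 2, where their summed signal was 3048, Fcgr1 read 3.74. Without that array the Fcgr1 log2 fold change was 4.83.

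**Figure D4:**
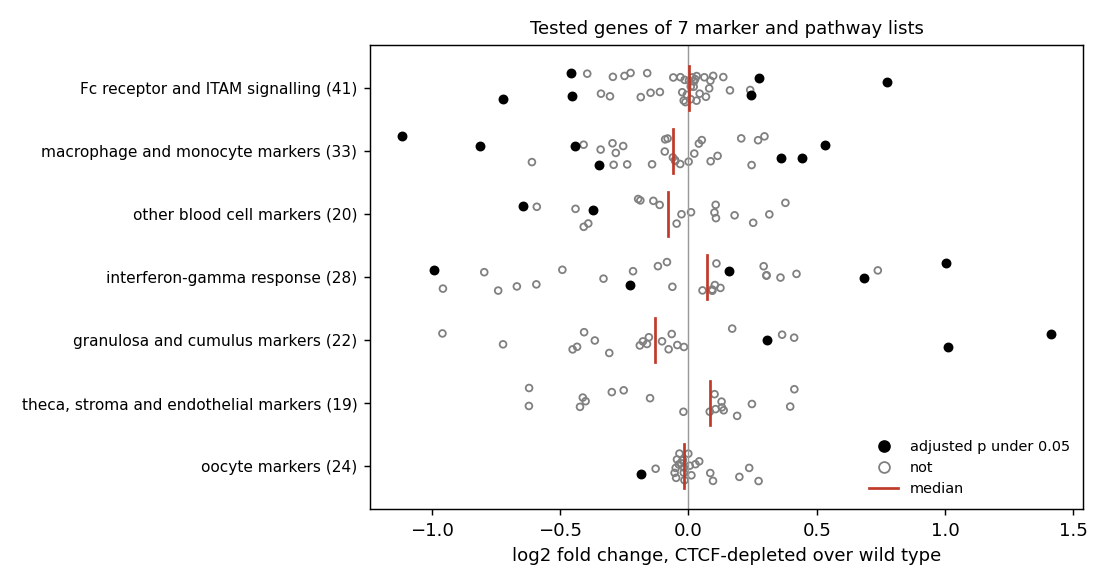
Log2 fold change, CTCF-depleted over wild type, of each tested gene in the 7 lists, with the number of tested genes in brackets, filled points for an adjusted p under 0.05 and a red line at the list's median. Points of every list lie on both sides of 0, and the list medians run from -0.13 to 0.08.

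In the 7 lists together, 24 of 187 tested genes were called, or 12.8%, against 16.4% of all genes. They were divided into 12 higher and 12 lower.

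Few genes next to Fcgr1 could be measured. Fcgr1 lies on chromosome 3 beside a cluster of histone genes on 1 side and transfer RNA genes on the other, by the order of the RefSeq table. Of the 5 genes on each side, 1 had a probe set, the histone gene H2bc18. It read 11.1 ± 3.53 in depleted and 18.3 ± 5.02 in wild type oocytes (SD, n = 5 each), a difference of -0.62 ± 0.23 on the log2 scale (SE) that did not pass (limma, adjusted p = 0.0918 by Benjamini-Hochberg). Around the Fcgr2b, Fcgr3, Fcgr4 and Fcer1g genes, the 5 flanking genes on each side were also examined. Dusp12, a phosphatase gene, fell by 0.23 with groups that overlapped, and B4galt3, a galactosyltransferase gene, rose by 0.42 on the log2 scale. Adamts4, Ppox and Usp21 were tested and not called, and the other flanking genes were not tested. Over all genes 16.4% were called, and these genes are too few to set against that share.

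The genes whose profile over the 10 arrays was nearest to that of Fcgr1 are given next. Among 10296 probe sets with 1 symbol and a mean signal of at least 100, likeness was the root mean square difference of log2 values, each less its wild type mean. Because Fcgr1 was chosen for this profile, the search is a description. The nearest 5 genes were Gldc at 1.22, Hmgn3 at 1.31, Dtd1 at 1.65, Itgae at 2.07 and Flot1 at 2.10. Gldc encodes a glycine-degrading enzyme, Hmgn3 a nucleosome-binding protein, Dtd1 a deacylase of D-aminoacyl tRNAs, Itgae an integrin chain and Flot1 a membrane scaffold. Flot1 read 1663 ± 169 in depleted and 393 ± 28.2 in wild type oocytes (SD, n = 5 each). The log2 fold changes of the 5 genes ran from 3.56 for Gldc to 2.07 for Flot1, against 4.92 for Fcgr1. The search favours genes with a large rise, so their difference between the groups is no separate result. Likeness to Fcgr1 among arrays of the same group was not tested.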

How the data were processed

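Each deposited file holds intensity values on a linear scale, 1 for each probe set. The submitters' processing notes name MAS5, and no version or setting of it is stated there. The 2% trimmed mean of each array was 150.001, so arrays had been scaled to it. Because MAS5 takes off a mismatch estimate, dim signals vary more. Gene names came from the platform annotation.

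Signals were transformed as log2(signal + 2.47), the 25th percentile of all values. The 64 control probe sets were left out, and dim probe sets were removed below the 40th percentile of mean log2 values (near a signal of 5.13), leaving 27022. Groups were compared with limma 3.58.1 in R 4.3.3 (lmFit, then eBayes with trend), and p-values were adjusted by Benjamini-Hochberg across the 27022 with a threshold of 0.05. A listed gene was represented by its brightest tested probe set, giving 13811 genes. A fold "at least" sets the brighter group's mean log2 signal against the dimmer group's signals or the control level, whichever was higher per array. The fit was tested on simulated data.

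The members and lists were chosen with earlier results of these data known. Named were all member probe sets, Ctcf, up to 3 called genes with the largest change and the first 3 genes of each list, genes beside Fcgr1 and the 5 nearest profiles; other listed genes were named after their values were seen. Correlations of same-numbered deviations between the groups were low, 0.0024 to 0.051. The nearest wild type array had the same number for depleted replicates 4 and 5 and another number for the others. Whether same-numbered arrays shared a batch is not in the labels and was not settled, and the main fit did not pair arrays. Alternatives were other offsets, filters, scalings, variance models, weights for arrays, a replicate block and leaving out arrays. Promoter sequences are RefSeq's, build GRCm38.p6, matched for 8 of 10 members; no build is named in the array files.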

Additional observations from a re-analysis of the deposited data

Results flagged for a closer look

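Outlying arrays were sought in 44 groups of 5 arrays, 20 member and 2 Ctcf probe sets in either group. In 10 of them an array's gap to the nearest other, divided by the range of the 5, exceeded Dixon's 95% limit of 0.71. About 1 in 20 pass that limit by chance where groups are independent and normally spread. These groups share arrays and many lie near background, so 10 is not read as an excess. Wild type replicate 2 was high for Lyz2 (27.9), the first Csf1r probe set (34.3) and the 2 Ptprc probe sets (3.41 and 5.85), of which the Ptprc values lay below its control level of 6.15. That array also had the highest summed signal of granulosa and cumulus markers, 3048. Its macrophage marker sum was 2596, and the wild type arrays, this one included, ran from 2447 to 2606. A sum of that size could not show a difference as small as that of Lyz2, so nothing is read from it. Wild type replicate 1 was high for the first Fcgr1 probe set (20.1), and wild type replicate 5 was low for the brightest C1qb probe set (152). Depleted replicate 1 was high for Fcer1g (9.48), and depleted replicate 5 was low for a dim Fcgr2b probe set (0.256). Depleted replicate 5 kept the most Ctcf on its 2 probe sets (61.1 and 95.8).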

How the results depend on the processing

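For the first Fcgr1 probe set the log2 fold change was 3.52 with an offset of 16, the 1 alternative that moved it by more than the spread between replicates, and 4.69 to 5.29 with single arrays left out. The number of member probe sets called was 1 without depleted replicate 4, where the second Fcgr1 probe set lost its call, and 1 to 2 over single arrays left out, and 2 under all other alternatives. The list genes called numbered 19 to 27 over 21 alternatives, against 24. With each array centred on its median, which shifted the median of all log2 fold changes by 0.086, 2 macrophage markers fell in place of 4. Without the intensity trend 1 gene of Fc receptor signalling rose in place of 3. Vav2 and Vav3 had -0.09 and 0.36 as means over their probe sets and were not called. With the replicate number as a block (replicate block) 2 member probe sets were called and 3581 of all, against 3406. Leaving out depleted replicates 2 and 5 together, chosen after seeing the data, gave 4.94 for Fcgr1. Values near the control level limit what can be said of Fcer1g, Tyrobp, Ptprc, Fcgr4 and Lyz2.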

Other observations

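Since most genes beside Fcgr1 have no probe set, the nearest 5 tested genes on each side in the RefSeq order were examined, a choice made after the data were seen. Of these 10 genes, 0 rose and 2 fell in limma with Benjamini-Hochberg adjustment. The histone gene H2ac19, 7 genes away, read 108 ± 15.3 in depleted and 147 ± 14.3 in wild type oocytes (SD, n = 5 each), a log2 fold change of -0.45 ± 0.10 (SE, adjusted p = 0.00765). The noncoding RNA Platr30, 6 genes away on the other side, read 2692 ± 50.6 in depleted and 2965 ± 116 in wild type oocytes, a log2 fold change of -0.14 ± 0.04 (SE, adjusted p = 0.0296). The splicing factor gene Sf3b4, 15 genes away, had a log2 fold change of -0.01 and the thioredoxin-interacting gene Txnip, 49 away, of -0.15, and neither passed. Over all genes 7.26% rose and 9.12% fell, and 10 genes are too few to set against these shares.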
